A study of Mus musculus with 46 samples.

Results

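T cells from the central nervous system (CNS, 3 libraries) were compared with T cells from the periphery (3 libraries) of wild-type mice with EAE (experimental autoimmune encephalomyelitis), in which an induced immune attack inflames brain and spinal cord and which serves as a model of multiple sclerosis. These 6 libraries, all those of both sites that have a table, were taken out of 17 libraries with a table and 46 labelled samples. Every one of the 6 came from non-pregnant C57BL/6 wild-type mice with EAE and from cells that the labels call CD8-T cells, which may mean T cells without CD8 or CD8 T cells. The peripheral cells came from spleen and lymph nodes. The labels do not say whether the replicates, or the libraries of both sites, came from separate animals or from pools, so the p-values below measure only the spread between these libraries. The other 11 libraries hold regulatory or conventional T cells of DEREG mice and are used for context only. The template was genomic DNA, which carries no expression, so the labelled cell type could not be checked against marker genes.

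The β chain of the T cell receptor is assembled in each developing T cell by joining one V, one D and one J segment of the Trb locus. Bases are trimmed from the segment ends, and the enzyme terminal transferase adds bases that no segment encodes. The joined stretch, called CDR3, is the part of the β chain that lies over the bound peptide, and its sequence marks all descendants of one cell as a clone. In EAE, CD4 T cells that recognise myelin proteins enter the CNS and divide there, and in C57BL/6 mice many cells specific for myelin oligodendrocyte glycoprotein use TRBV13-2, also called Vβ8.2. A rearrangement is defined here as a V segment, a J segment and a CDR3 nucleotide sequence. A clonotype joins the V segment to the amino acids of the CDR3, and a clonotype made by 2 or more nucleotide sequences is called convergent. In the text a clonotype is named by its V segment and its central residues, which are those left after the first 4 and the last 4 residues of the CDR3.

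Read totals were alike at both sites and the numbers of rearrangements were not. CNS libraries held 336240 to 371512 reads over 3078, 2426 and 1698 rearrangements, and periphery libraries held 324273 to 390593 reads over 13303, 7173 and 6079 rearrangements. The number of cells behind a library is unknown, and few cells in a sample and few clones among its cells cannot be told apart in such bulk libraries. Rearrangements whose share of reads was under 5% of their share in another of the 17 libraries, a pattern that carry-over between libraries would leave, made up 32.4%, 21.8% and 16.1% of CNS rearrangements against 6.21%, 4.35% and 4.24% of periphery rearrangements. In reads they came to 1.30%, 0.192% and 0.114% in the CNS and to 0.765%, 0.331% and 0.350% in the periphery. All measures were therefore also taken without these rearrangements, which is called the carry-over filter below.

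Among the convergent clonotypes with the most sequences, the one with the largest mean share of CNS reads was TRBV13-2 ETGGNYA, joined to TRBJ2-1. Its V segment lies at chr6:41121396-41121832 and its J segment at chr6:41542754-41542803 (GRCm38.p6). The 8 nucleotide sequences found in CNS libraries and the 2 found in periphery libraries alone are shown to let the sequences behind one protein sequence be compared. Whether each came from a joining event of its own or from a base error was not tested. Each runs 5′ to 3′, and capitals mark the 5 bases that vary among the 10 sequences.
sequence 1: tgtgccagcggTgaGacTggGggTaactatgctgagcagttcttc
sequence 2: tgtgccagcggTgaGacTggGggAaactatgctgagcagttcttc
sequence 3: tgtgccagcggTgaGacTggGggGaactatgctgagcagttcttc
sequence 4: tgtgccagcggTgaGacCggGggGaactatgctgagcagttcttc
sequence 5: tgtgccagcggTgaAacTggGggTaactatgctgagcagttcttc
sequence 6: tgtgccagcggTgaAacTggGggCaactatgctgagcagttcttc
sequence 7: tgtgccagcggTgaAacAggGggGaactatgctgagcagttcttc
sequence 8: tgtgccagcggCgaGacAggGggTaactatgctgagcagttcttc
sequence 9: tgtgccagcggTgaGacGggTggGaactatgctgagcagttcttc
sequence 10: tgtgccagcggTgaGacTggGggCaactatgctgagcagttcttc

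All 10 sequences were 45 bases long and began with the same 11 bases. The variable bases were the last bases of codons 4 to 8, at positions 12, 15, 18, 21 and 24 counted from 1 at the first base of the CDR3, and the sequences differed from each other by 1 to 4 bases. Each sequence was assigned 14 V bases, so position 12, where sequence 8 differs, lies within them. Sequences 3 and 4 were both assigned TRBD2 with 0 inserted bases and differ at position 18. Sequence 1 was the most abundant of the 10 in CNS replicate 3, with 9550 reads (2.84% of that library), was at 0 reads in CNS replicate 2 and had 65 reads in CNS replicate 1. Sequence 2 held 402, 5115 and 1694 reads in CNS replicates 1, 2 and 3, against 17, 1 and 0 reads in periphery replicates 1, 2 and 3. Sequence 3 held 545, 1758 and 1550 reads in the CNS, against 7, 1 and 38 reads in the periphery. After the carry-over filter sequences 2 and 3 were kept in all 3 CNS libraries and in 0 periphery libraries. The filter leaves out a periphery copy when its share is under 5% of a share in the CNS. The clonotype was picked for a large CNS share, so these counts follow in part from that choice. Sequence 4 was kept in CNS replicate 2 alone, with 1476 reads, as were sequences 5, 6 and 8, with 1361, 1117 and 111 reads. Sequences 9 and 10 held 197 and 209 reads in periphery replicate 3 and were absent from the CNS tables.

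Summed over its sequences, TRBV13-2 ETGGNYA stood at 0.302%, 2.94% and 4.01% in CNS replicates 1, 2 and 3, against 0.0121%, 0.00123% and 0.114% of reads in periphery replicates 1, 2 and 3. It was the largest clonotype of CNS replicate 3 and had rank 3 in CNS replicate 2. The clonotype was picked for its number of sequences and its CNS share, so these values are a description with no test. With the carry-over filter CNS replicates 1, 2 and 3 kept 2, 6 and 4 of its sequences, and periphery replicates 1, 2 and 3 kept 0, 0 and 2. These counts too follow in part from the choice of a clonotype that is large in the CNS. A second filter, on likely read errors, left out a rearrangement that differed by 1 base from one of the same library, V, J and length with at least 20 times its reads.

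The largest clones of the other CNS libraries each rested on a single sequence, and are shown for contrast with capitals on the bases assigned to no segment. TRBV13-2 AGG took 15.4% of the reads of CNS replicate 1, and TRBV19 IDINTG took 5.44% of those of CNS replicate 2.
TRBV13-2 AGG: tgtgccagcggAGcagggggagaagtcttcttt
TRBV19 IDINTG: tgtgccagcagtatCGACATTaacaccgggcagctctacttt
Both were read in all 6 tables before the carry-over filter, and 0 rearrangements of the same library lay 1 base away. Whether their reads in the other tables came from carry-over was not tested. The largest periphery clonotypes, TRBV13-2 DRGRD, TRBV16 LESSAE and TRBV31 LKGRNS, also had 1 sequence each and took 0.205%, 0.292% and 0.358% of the reads.

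Reads were concentrated in few clonotypes in the CNS and spread over many in the periphery. Clonotypes of at least 1% of a library's reads numbered 10, 16 and 16 in CNS libraries and 0 in each periphery library. They held 41.6%, 32.1% and 33.6% of CNS reads (Wilson 95% interval for the first 41.5% to 41.8%), a mean of 35.8% ± 5.1 (SD, n = 3). The largest periphery clonotypes, at 0.205% to 0.358%, lay below that limit. The middle of the distribution also moved. Clonotypes of 0.01% to 0.1% of reads together made up 22.5% ± 6.7 in the CNS and 78.3% ± 4.1 in the periphery, and those of 0.1% to 1% made up 40.004% ± 10.1 in CNS libraries and 7.68% ± 6.67 in periphery libraries (SD, n = 3 each).

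To reach 50% of the reads took the 24, 46 and 40 largest clonotypes of CNS replicates 1, 2 and 3, against the 1422, 952 and 661 largest of periphery replicates 1, 2 and 3. The effective number of clonotypes, the inverse Simpson index, which is the number of equally large clones that would give the same chance of drawing the same clone from 2 reads, was 27.2, 97.8 and 94.6 in the CNS and 3669, 2443 and 1698 in the periphery. CNS replicate 1, with its clone of 15.4% of reads, had the lowest value. At rank 100 a clonotype still held 0.139%, 0.163% and 0.222% of CNS reads against 0.0627%, 0.0786% and 0.104% of periphery reads. By rank 1000 the order had turned, with 0.00615%, 0.00700% and 0.000297% in the CNS and 0.0245%, 0.0305% and 0.0348% in the periphery. The CNS and periphery libraries did not overlap in any of the 3 clone-size measures, with p = 0.1 for each (exact permutation over libraries, two-sided, n = 3 against 3).

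**Figure D1:**
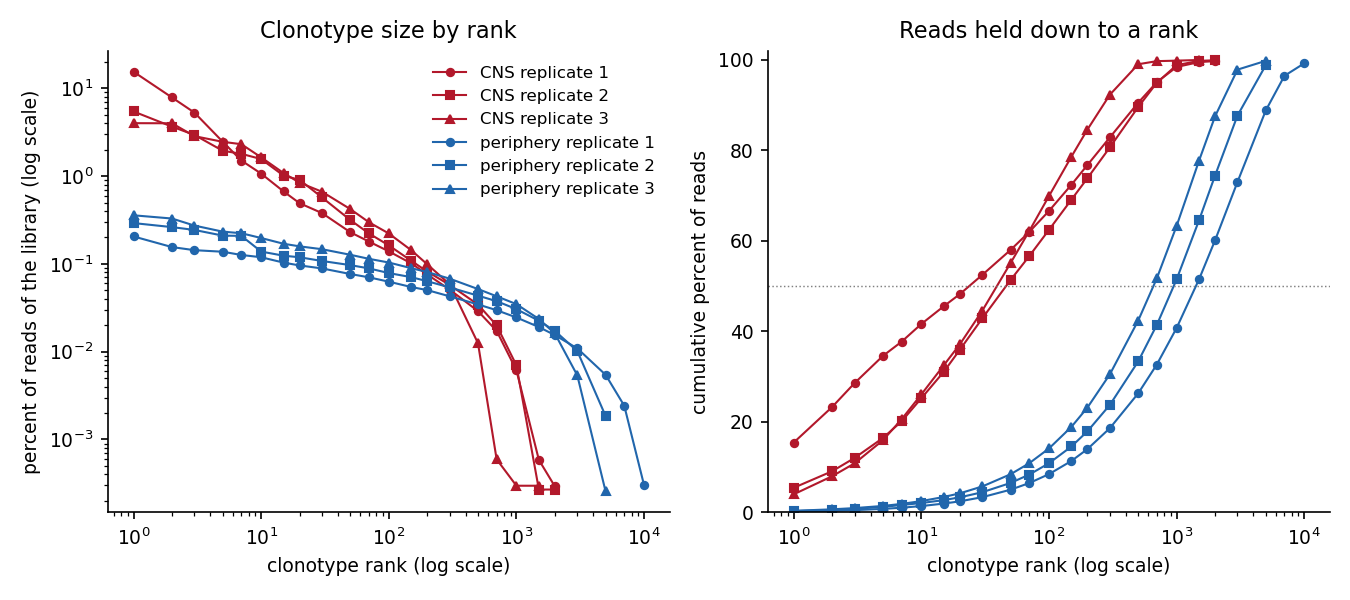
Clonotype size in percent of a library's reads by rank (left) and the cumulative percent of reads down to a rank (right), with ranks on a log scale and 1 line per library. The CNS lines start at 4.01% to 15.4% and fall below the periphery lines by rank 1000, and the dotted line at 50% is crossed at ranks 24 to 46 in the CNS and 661 to 1422 in the periphery.

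With 3 libraries against 3 there are 20 assignments, so 0.1 is the smallest p this design allows and no single measure could pass 0.05. Of the 11 measures tested this way, 6 had groups that did not overlap, namely the 3 clone-size measures, net charge, convergence and the share of clonotypes found at the other site, of which the last depends on the lengths of the tables. In this family the smallest p after Benjamini-Hochberg adjustment over the 11 was 0.183. The PCR carried no molecular identifiers, so counting error is all that the Wilson interval describes.

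The pairing of V with J segments was compared by reads, by numbers of clonotypes, and by numbers of clonotypes relative to what the V and J totals of each library give. edgeR's quasi-likelihood test called 0 of 239 pairs (0%) by reads, 0 of 152 (0%) by clonotypes and 0 of 152 (0%) once segment use was taken out, at an adjusted p under 0.05. At an unadjusted p under 0.05 the numbers were 33, 36 and 16. DESeq2 called 21 pairs (8.79%) by reads, 9 higher (3.77%) and 12 lower (5.02%) in the CNS, and 2 of 152 pairs by clonotypes. With the carry-over filter edgeR called 4 of 146 pairs by clonotypes (2.74%), all higher in the CNS. With at least 2 reads per rearrangement it called 10 of 128 (7.81%), 9 higher (7.03%) and 1 lower (0.781%).

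Those 4 pairs, singled out after their values were seen, were TRBV13-2 TRBJ2-1 (log2 change 1.24, SE 0.27, edgeR adjusted p = 0.00339), TRBV5 TRBJ2-5 (0.99, SE 0.25), TRBV5 TRBJ2-1 (0.98, SE 0.27) and TRBV5 TRBJ2-3 (0.85, SE 0.25). Without the filter TRBV13-2 TRBJ2-1 made up 2.82%, 1.94% and 5.24% of CNS clonotypes, against 1.73%, 1.53% and 1.68% of periphery clonotypes. It changed by a log2 of 1.03 (SE 0.30, adjusted p = 0.0806 in edgeR) and, with segment use taken out, of 0.32 (SE 0.10, adjusted p = 0.395 in edgeR). Without CNS replicate 3 the first value was 0.59. TRBV5 TRBJ2-5 made up 2.15%, 2.40% and 2.44% of CNS clonotypes and 1.13%, 1.52% and 1.29% of periphery clonotypes, which was a log2 difference of 0.89 (SE 0.21, adjusted p = 0.0802 in edgeR) and of 0.23 (SE 0.12, adjusted p = 0.527 in edgeR) with segment use taken out. Lower in the CNS, also below the threshold, were TRBV4 TRBJ2-5 at 0.470%, 0.505% and 0.427% against 0.983%, 0.839% and 0.934% of clonotypes, and TRBV31 TRBJ2-7 at 0.571%, 0.674% and 0.305% in the CNS against 0.951%, 1.23% and 1.02%. TRBV31 lies on the far side of the D and J segments and joins by inversion.

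Most pairs of the Vβ8 segments, TRBV5 and TRBV20 had a larger share of clonotypes in the CNS. Of the 21 pairs of the Vβ8 segments TRBV13-1, TRBV13-2 and TRBV13-3, 17 had a positive log2 change in clonotypes, with a median of 0.35, against 72 of all 152 pairs and a median of -0.05. For TRBV5 the numbers were 8 of 10 and 0.52, and for TRBV20 9 of 10 and 0.49. With segment use taken out the medians were -0.03 for Vβ8, 0.03 for TRBV5, -0.11 for TRBV20 and 0.01 over all pairs. Pairs of the V segments favoured by natural killer T cells (TRBV13-2, TRBV29 and TRBV1), which the libraries could contain, had 16 positive of 29 and a median of 0.05 in clonotypes, and J clusters 1 and 2 had medians of -0.07 and -0.05.

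**Figure D2:**
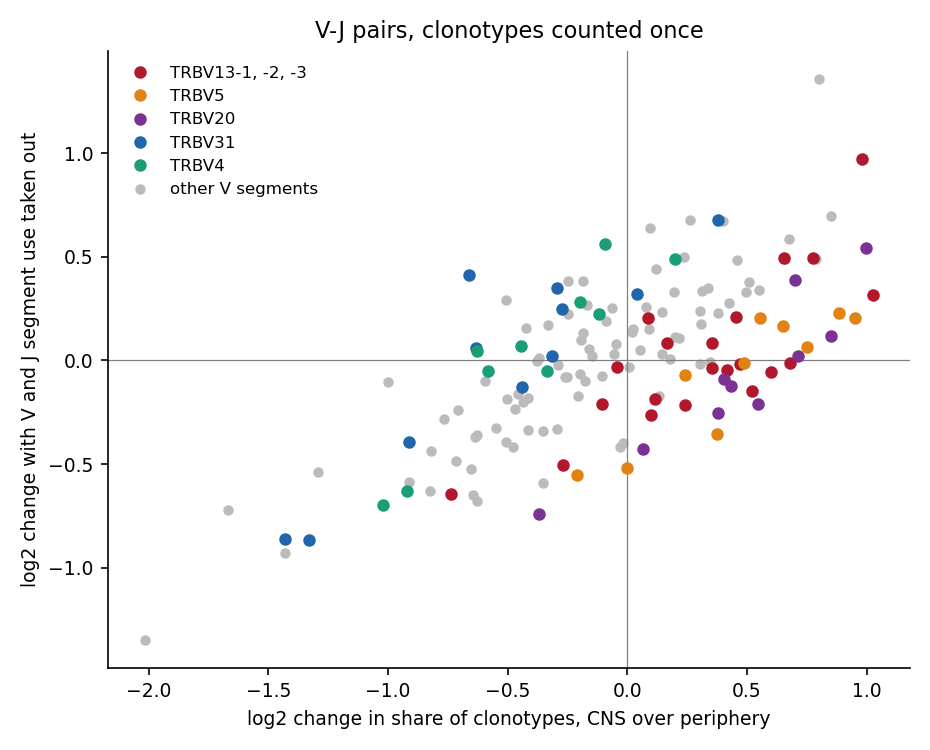
Log2 change of each of 152 V-J pairs, CNS over periphery, in the share of clonotypes (horizontal) and after V and J segment use is taken out (vertical), with 1 point per pair coloured by V segment. Of the 21 points of the TRBV13 segments 17 lie right of 0, while their median on the vertical axis is -0.03.

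By reads, single clones made up large parts of the leading pairs in the CNS. TRBV13-2 TRBJ1-1 took 17.1%, 1.23% and 2.51% of CNS reads and 2.23%, 1.10% and 1.46% of periphery reads, and TRBV13-2 AGG alone made up 90.5% of this pair in CNS replicate 1. TRBV20 TRBJ2-5 took 3.35%, 5.42% and 5.64% of CNS reads and 1.97%, 0.840% and 0.782% of periphery reads, groups that did not overlap (log2 change 3.02, SE 0.66, edgeR adjusted p = 0.25). Its largest clonotype was another one in each CNS library, TRBV20 QDNQD, DEGGD and DTQD, and made up 48.6%, 45.4% and 43.6% of the pair. TRBV13-2 TRBJ2-1 took 3.11%, 4.79% and 8.34% of CNS reads against 2.67%, 1.78% and 2.34% of periphery reads (log2 change 2.29, SE 0.61, edgeR adjusted p = 0.25), and TRBV13-2 ETGGNYA made up 61.4% and 48.1% of it in CNS replicates 2 and 3. TRBV13-2 TRBJ2-7 and TRBV13-2 TRBJ2-5 averaged 4.47% ± 2.05 and 4.32% ± 0.87 of CNS reads and 3.61% ± 1.01 and 4.18% ± 0.92 of periphery reads (SD, n = 3 each), and the groups overlapped for both. These log2 changes by reads include TMM normalization. Without TMM the median change over the 239 pairs moved by -1.04 and 54 pairs changed sign, and the values were 2.00 for TRBV20 TRBJ2-5 and 1.26 for TRBV13-2 TRBJ2-1.

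Over all 239 pairs by share of reads, the groups did not overlap for 3 pairs higher in the CNS (1.26%) and for 73 lower (30.5%), which is 31.8% in all. By share of clonotypes 19 pairs were higher and 24 lower without overlap, which is 28.3% of 152. Shares within a library sum to a fixed total, so the pairs are not independent of each other.

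The number of inserted bases was close at both sites when each rearrangement was counted once. Rearrangements with an assigned D segment carried 2.64, 3.04 and 2.94 bases outside any segment in CNS replicates 1, 2 and 3, against 2.76, 2.89 and 2.84 in periphery replicates 1, 2 and 3. The mean was 2.87 ± 0.21 over CNS libraries and 2.83 ± 0.07 over periphery libraries (SD, n = 3 each, exact two-sided permutation p = 0.8), and the median was 2 bases in every library. Between V and D the means were 1.40 ± 0.18 in the CNS and 1.41 ± 0.08 in the periphery, and between D and J they were 1.47 ± 0.04 for CNS and 1.42 ± 0.02 for periphery libraries (exact two-sided permutation p = 1 and p = 0.3, n = 3 each). No inserted base at either junction was found in 20%, 16.98% and 17.5% of CNS rearrangements and in 18.2%, 16.5% and 17.4% of periphery rearrangements (exact two-sided permutation p = 0.6, n = 3 each). The D segment contributed 8.44, 8.07 and 8.42 bases in the CNS and 8.25, 8.13 and 8.51 in the periphery. No D segment was assigned in 25.9%, 29.1% and 22.8% of CNS and 27.7%, 29.0% and 25.9% of periphery rearrangements. For each of these measures the groups overlapped.

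Among abundant rearrangements the result depended on how they were chosen. The 500 most abundant rearrangements of each library carried 2.42, 2.52 and 2.49 inserted bases in the CNS, against 1.94, 2.27 and 2.18 in the periphery, and the groups did not overlap (exact two-sided permutation p = 0.1, n = 3 each). Among the same 500, no D segment was assigned in 30.8%, 29.2% and 25.0% in the CNS against 40%, 36.4% and 36.0% in the periphery, again without overlap. The share with no inserted base in these 500 overlapped, at 21.1%, 17.5% and 18.4% in the CNS and 24.3%, 21.4% and 19.7% in the periphery (exact two-sided permutation p = 0.2, n = 3 each). Rearrangements of at least 10 reads carried 2.43, 2.58 and 2.70 inserted bases in the CNS and 2.43, 2.47 and 2.48 in the periphery, and with each rearrangement weighted by its reads the difference was 0.0749 bases (exact two-sided permutation p = 0.3 for both, n = 3 each). Those of 0.01% to 0.1% of reads carried 2.44 ± 0.11 in the CNS, against 2.38 ± 0.03 in the periphery. Rearrangements of at least 0.1% of reads carried 2.53 ± 0.16 inserted bases in the CNS (104 to 147 per library) and 1.70 ± 0.43 in the periphery (5 to 53 per library; SD, n = 3 each). Those of 1 read carried 3.03 ± 0.19 in the CNS and 3.54 ± 0.54 in the periphery. The 500th rearrangement had 99, 129 and 47 reads in CNS replicates 1, 2 and 3, against 112, 140 and 202 reads in the periphery, so these subsets differ in depth.

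**Figure D3:**
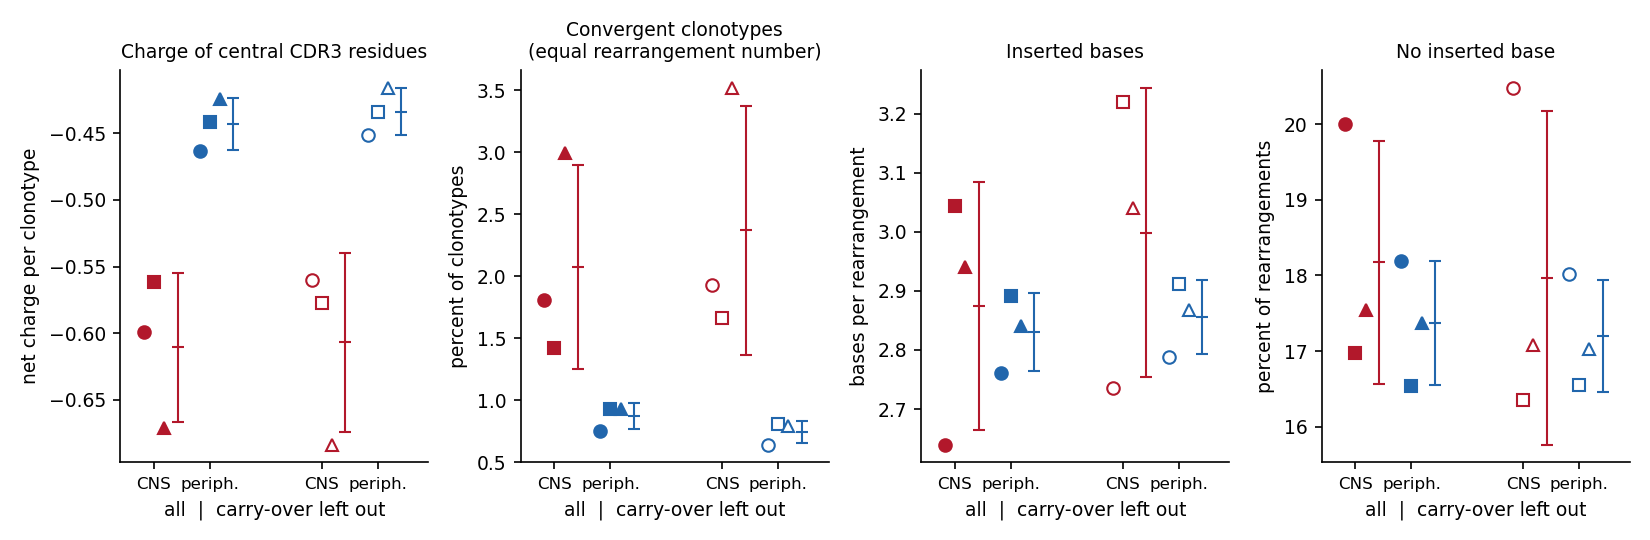
Net charge of the central residues, percent of convergent clonotypes at equal numbers of rearrangements, inserted bases and percent of rearrangements with no inserted base, with 1 point per library (circle, square and triangle for replicates 1, 2 and 3), CNS in red and periphery in blue, filled with all rearrangements and open with the carry-over filter. Bars are the mean ± SD (n = 3), and the axes do not start at 0. The groups do not overlap in charge and convergence and overlap in both measures of insertion.

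The amino acid content of the CDR3 centre differed most clearly in 2 charged residues. Arginine, a basic residue, fell to 5.09%, 4.94% and 4.20% of central residues in the CNS, against 5.51%, 5.65% and 6.00% in the periphery, with each clonotype counted once (log2 change -0.25, SE 0.06, edgeR adjusted p = 0.0064). Aspartate, an acidic residue, rose to 10.7%, 10.2% and 11.1% in the CNS, against 9.48%, 9.35% and 9.48% in the periphery (log2 change 0.17, SE 0.04, edgeR adjusted p = 0.0064). These were the 2 residues called out of 20 (10%), and both had groups that did not overlap. Libraries contributed 9936 to 17798 central residues in the CNS and 35139 to 74418 in the periphery.

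Glutamate and lysine lay in the directions of aspartate and arginine without passing the threshold, and histidine did not lie in the direction of arginine. Glutamate, the other acidic residue, made up 4.85%, 4.82% and 4.64% in the CNS and 4.45%, 4.44% and 4.19% in the periphery (log2 change 0.13, edgeR adjusted p = 0.0726). Lysine, a basic residue, made up 0.438%, 0.550% and 0.433% in the CNS and 0.590%, 0.644% and 0.564% in the periphery, and had the largest change in size (log2 change -0.34, SE 0.13, edgeR adjusted p = 0.0843). Histidine, which is also classed as basic, lay higher in the CNS, against the direction of arginine and lysine (log2 change 0.21, SE 0.12, edgeR adjusted p = 0.198). It is not counted in the net charge below. Groups did not overlap for 8 residues (40%), 3 higher (D, E and H) and 5 lower (K, L, N, R and T) in the CNS. Differences were thus not limited to charged residues. Uncharged asparagine (N) had a log2 change of -0.12 (SE 0.04) with the same edgeR adjusted p as glutamate, 0.0726. It passed the threshold in some alternatives, such as at least 10 reads (0.0158), and not in others, such as the carry-over filter (0.0525). Hydrophobic residues, taken as A, F, I, L, M, V, W and Y, made up 24.3% ± 0.70 of central residues in the CNS, against 24.2% ± 0.14 in the periphery (SD, n = 3 each, exact two-sided permutation p = 0.9). Weighted by reads they were 20.1%, 22.0% and 20.4% in the CNS against 23.2%, 23.1% and 24.4% in the periphery, without overlap.

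With the carry-over filter both calls were lost narrowly, with log2 changes of -0.26 for arginine and 0.15 for aspartate (edgeR adjusted p = 0.0525 for each), and with the carry-over and error filters together both passed (0.0423 for each). With TMM scaling both also missed the threshold (0.0547 for each). Arginine was below 0 under every alternative run, from -0.18 to -0.61, and missed the threshold in the 1000 and 500 most abundant rearrangements and within TRBV13-2 (edgeR adjusted p = 0.187, 0.394 and 0.139). Aspartate was lower in the CNS among the 1000 most abundant rearrangements (log2 change -0.27, edgeR adjusted p = 0.0251) and near 0 within TRBV13-2 (-0.01). Its log2 change was 0.092 with at least 10 reads and 0.095 among junctional residues (edgeR adjusted p = 0.176 and 0.417). The 1000th rearrangement had 1 read in CNS replicate 3, against 21 and 27 in CNS replicates 1 and 2 and 81 to 137 in the periphery. Ties at 1 read were taken in alphabetical order of sequence, so in CNS replicate 3 the subset of 1000 was not all abundant. The arginine call was lost without periphery replicate 2 (edgeR adjusted p = 0.084), and the aspartate call without CNS replicate 1, periphery replicate 1 or periphery replicate 2 (0.0622, 0.0647 and 0.084).

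**Figure D4:**
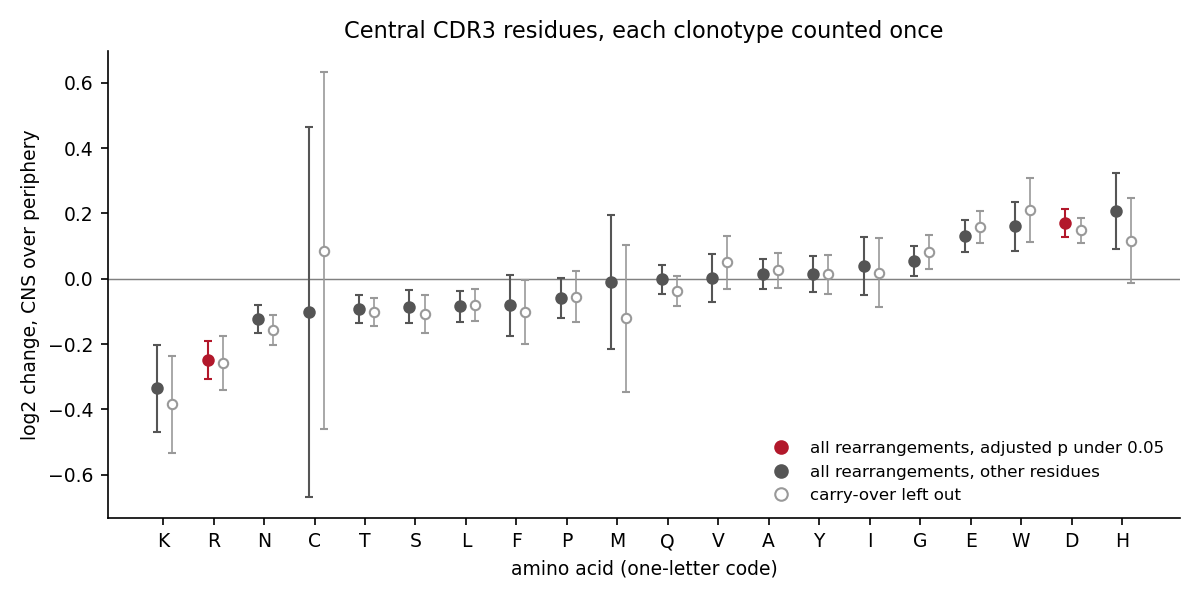
Log2 change of each of the 20 amino acids among central CDR3 residues, CNS over periphery, with bars of ± 1 approximate SE derived from the edgeR F, sorted by size. Filled points use all rearrangements, with the 2 called residues R and D in red, and open grey points use the carry-over filter; K and R lie lowest and H and D highest.

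The net charge of the central residues, with lysine and arginine as plus 1 and aspartate and glutamate as minus 1, was lower in every CNS library than in every periphery library. It averaged -0.599, -0.562 and -0.671 per clonotype in the CNS, against -0.463, -0.442 and -0.424 in the periphery, a difference of -0.168 (exact two-sided permutation p = 0.1, n = 3 each). A net negative centre was found in 53.9% ± 3.0 of CNS clonotypes and 45.8% ± 0.57 of periphery clonotypes, and a net positive one in 10.2% ± 0.80 of CNS and 13.1% ± 0.55 of periphery clonotypes (SD, n = 3 each). Per clonotype there were 0.637 aspartates and 0.283 arginines in the CNS and 0.559 aspartates and 0.339 arginines in the periphery, while the centre had 5.98 ± 0.09 residues at the CNS site and 5.93 ± 0.04 at the peripheral one (SD, n = 3 each). The carry-over filter left a difference of -0.173. Weighted by reads the difference was -0.375, from -0.776, -1.04 and -0.864 in the CNS and -0.546, -0.543 and -0.463 in the periphery. With every V segment given the same weight in all libraries it was -0.112, and for junctional residues alone, those with a base outside the assigned V and J bases, it was -0.118. Among the 1000 and the 500 most abundant rearrangements it was -0.0489 and -0.0541, and the groups overlapped. Split by clone size, the groups were apart only for clonotypes under 0.01% of reads. Means there were -0.595 in the CNS and -0.415 in the periphery (exact two-sided permutation p = 0.1, n = 3 each). The groups overlapped at 0.01% to 0.1% (-0.565 against -0.489, permutation p = 0.2) and at 0.1% or more (-0.881 against -0.765, permutation p = 0.5). Clonotypes of 0.1% or more had the lowest mean charge at both sites, so weighting by reads also brings in clone size.

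The lower charge ran through most V segments. Among the 20 V segments with at least 10 clonotypes in every library, 16 had a lower mean charge in the CNS, 10 of them with groups that did not overlap, and 0 were higher without overlap. The difference was largest for TRBV5, whose clonotypes averaged -1.09, -0.897 and -1.14 in the CNS against -0.678, -0.597 and -0.634 in the periphery. TRBV5 centres held 1.33, 1.21 and 1.31 acidic residues in the CNS against 1.005, 0.996 and 0.990 in the periphery, and a basic residue occurred in 21.0%, 28.2% and 14.5% of CNS against 29.5%, 33.9% and 30.5% of periphery TRBV5 clonotypes. At residue 6 of the CDR3, the second central one after the C-A-S-S-Q start of most TRBV5 clonotypes, an acidic residue stood in 55.9%, 58.0% and 56.6% in the CNS against 49.8%, 51.9% and 49.4% in the periphery. TRBV5 centres were also longer, with 6.65, 6.67 and 6.64 residues in the CNS and 6.37, 6.37 and 6.46 in the periphery. TRBV13-2 differed less, with -0.924, -0.960 and -0.986 in the CNS against -0.878, -0.892 and -0.881 in the periphery. TRBV4 was the segment farthest the other way, with -0.0545, -0.226 and 0.0909 in the CNS and -0.266, -0.186 and -0.152 in the periphery, and its groups overlapped.

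**Figure D5:**
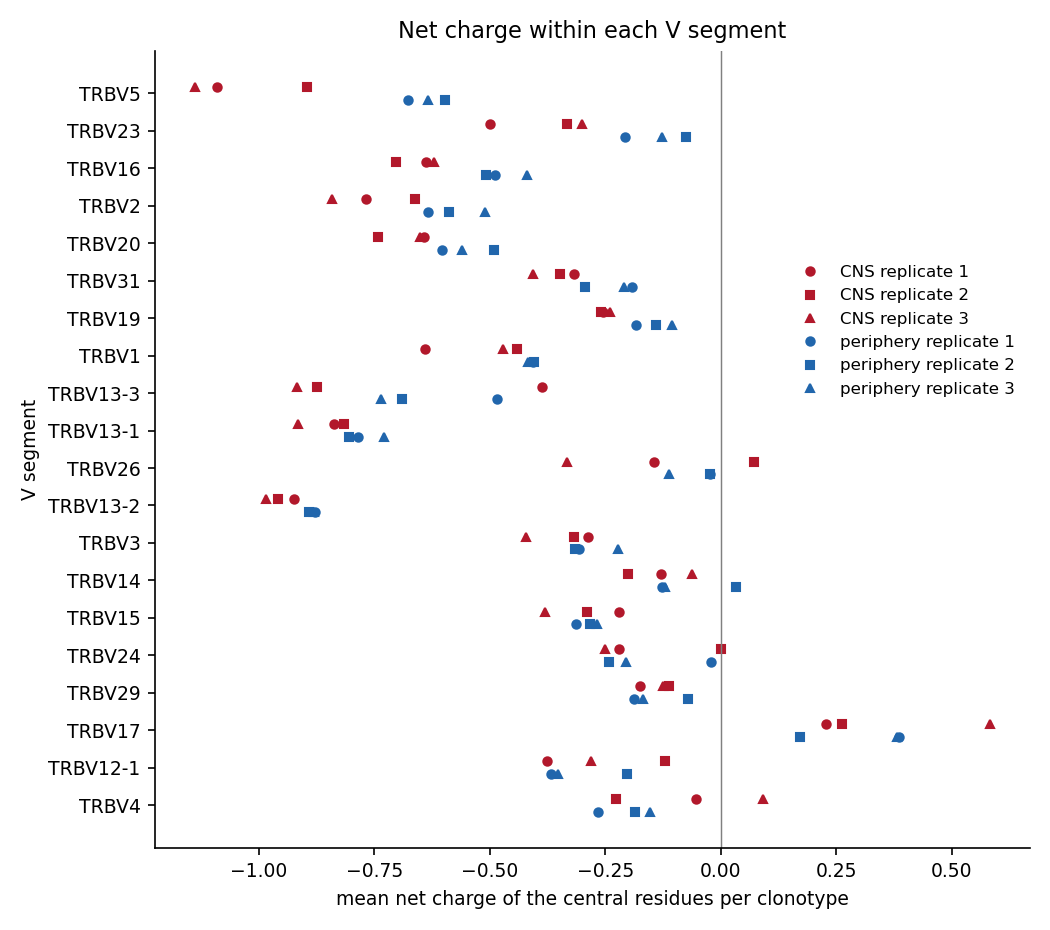
Mean net charge of the central residues per clonotype for 20 V segments, sorted by the difference between sites, with 1 point per library, CNS in red above periphery in blue. In 10 segments, TRBV5 and TRBV13-2 among them, all 3 CNS points lie left of all 3 periphery points.

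Convergent clonotypes, with every second sequence counted, were more frequent in CNS libraries at equal numbers of rearrangements. For a draw of 1698 rearrangements, the size of the smallest library, the expected share of clonotypes made by several nucleotide sequences was 1.81%, 1.42% and 2.99% in CNS replicates 1, 2 and 3, against 0.750%, 0.932% and 0.929% in periphery replicates 1, 2 and 3. The groups did not overlap (2.07% ± 0.82 against 0.870% ± 0.104, SD, n = 3 each, exact two-sided permutation p = 0.1). With both filters the shares were 1.63%, 1.49% and 3.38% in the CNS against 0.553%, 0.680% and 0.684% in the periphery. With at least 10 reads per rearrangement they were 0.752%, 0.682% and 2.80% in the CNS against 0.141%, 0.135% and 0.201% in the periphery. CNS replicate 3 was the highest in each case, and without it the difference at the draw of 1698 was 0.745 percentage points, against 1.20 with all libraries. Other measures of convergence gave other results. A second sequence of at least 10 reads, after both filters, occurred in 0.788% ± 0.284 of CNS clonotypes, against 0.694% ± 0.110 of those in the periphery (SD, n = 3 each, exact two-sided permutation p = 0.9). Among clonotypes of at least 0.1% of reads it occurred in 2.56%, 3.64% and 5.03% in the CNS (4, 6 and 10 clonotypes), against 11.8%, 11.4% and 6.42% in the periphery (2, 5 and 7 clonotypes), lower in each CNS library (exact two-sided permutation p = 0.1, n = 3 each). Without the equal draw the direction turned, to 3.03%, 1.90% and 2.99% in the CNS and 5.30%, 3.65% and 3.11% in the periphery, whose tables hold more rearrangements.

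After both filters CNS libraries held 46, 35 and 46 convergent clonotypes, of which 2, 2 and 9 had 3 or more sequences, and the periphery held 513, 200 and 149, of which 30, 8 and 6 did. Convergent clonotypes took 2.95%, 4.91% and 11.5% of CNS reads and 5.87%, 3.68% and 4.37% of periphery reads, and these ranges overlapped. TRBV13-2 made up 30.5% ± 7.8 of the convergent and 20.4% ± 5.2 of the other CNS clonotypes, against 16.7% ± 2.9 and 14.6% ± 0.71 in the periphery (SD, n = 3 each). Convergent clonotypes carried 2.48 ± 0.37 inserted bases in the CNS and 2.73 ± 0.28 in the periphery, and the others 3.04 ± 0.24 in the CNS and 2.87 ± 0.06 in the periphery.

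Of the convergent clonotypes with the most sequences, most stood at low shares. TRBV13-2 ETGGYA, which lacks the asparagine of ETGGNYA, had 4 sequences in the CNS, took 0.3004%, 0 and 0.0202% of CNS reads and was at 0 reads in all 3 periphery libraries. TRBV5 QDSGEGT had 4 sequences and took 0.156%, 0 and 0.0164% of CNS reads, against 0, 0 and 0.000256% of periphery reads. TRBV2 QEGGGQD took 0.343% in CNS replicate 3, 0.0240% or less in the other CNS libraries, and up to 0.0566% in the periphery. TRBV5 QERT took 0.0187%, 0.0517% and 0.0497% of CNS reads, against 0.0133%, 0 and 0.0177% of periphery reads. Chosen by the number of sequences in the periphery, TRBV20 DTQD took 0, 0.416% and 2.46% of CNS reads, against 0.0718%, 0 and 0.141% of periphery reads. TRBV16 LEGD took 0.794%, 0.000538% and 0 of CNS reads, against 0.0536%, 0.208% and 0.0566% of periphery reads. TRBV13-2 DAGGGQN took 0.0158%, 0.566% and 0 in the CNS against 0.0176%, 0 and 0.00691% in the periphery. TRBV13-2 DSYNS was lower in each CNS library than in each periphery library, at 0.000293%, 0.00592% and 0 against 0.0203%, 0.0854% and 0.148% in the periphery. These clonotypes were named for their numbers of sequences, and their shares carry no test.

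Sharing of rearrangements between the sites was concentrated in 2 library pairs only after the carry-over filter. Before it, CNS replicates 2 and 1 shared most with periphery replicate 1, at 629 and 385 rearrangements. CNS replicate 1 then shared 216 with periphery replicate 2, and CNS replicate 2 shared 191 with periphery replicate 3. The filter also leaves out a true copy of a clone that is far larger in another library. After the carry-over filter CNS replicate 1 shared 120 rearrangements with periphery replicate 2, and CNS replicate 2 shared 129 with periphery replicate 3. The other 7 pairings of a CNS with a periphery library shared 5 to 50. The shared rearrangements held 9.36% of the reads of CNS replicate 1 and 10.1% of those of CNS replicate 2, against 4.16% of periphery replicate 2 and 4.63% of periphery replicate 3. CNS replicate 3 shared 15, 5 and 7 with periphery replicates 1, 2 and 3. Libraries with the same number shared 16, 13 and 7, and the labels do not say which libraries share an animal. Sharing between CNS libraries was 11 to 20 rearrangements, and between periphery libraries 23 to 54. These counts depend on table length, which was 1424 to 2082 rearrangements in the CNS and 5821 to 12477 in the periphery. Divided by the product of the 2 table lengths, sharing was higher between CNS libraries. On a common scale it was 4.07 to 6.41 between CNS libraries, against 0.576 to 0.631 between periphery libraries.

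Of CNS clonotypes 11.6%, 16.3% and 8.28% were also found in a periphery library after the carry-over filter, and of periphery clonotypes 1.97%, 3.603% and 3.67% in a CNS library. Before the filter the shares were 26.1%, 37.7% and 21.4% for the CNS against 7.37%, 6.30% and 6.203% for the periphery. The tables differ in length, so the shares for the sites start from different denominators and show no preference.

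The 11 DEREG libraries give the range of the same measures in sorted CD4 cells of spleen and lymph nodes, from naive and EAE, pregnant and non-pregnant mice of another line, with no test. Their net charge ran from -0.467 to -0.414 in conventional and from -0.381 to -0.315 in regulatory T cells, all above the 3 CNS values. Their inserted bases ran from 2.55 to 2.65, and their convergent share at the same draw from 0.519% to 1.37%. Clonotypes of at least 1% of reads held 0% to 42.6% of their reads.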

How the data were processed

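Amplified TCRβ rearrangements from genomic DNA were deposited by the authors as 1 table per library, with a read count, a fraction of reads, V, D and J names, the CDR3 sequences and the segment end positions, per the file headers. The positions, numbers counted from 0 in the deposited tables, gave the inserted bases between V and D and between D and J. Cells were extracted with a Qiagen AllPrep kit and amplified with a primer mix that covers the mouse V and J segments, per the labels' protocols. The build was mm10, per the submitters' processing notes, and the program that assigned segments is not given in the sources used here. Segment coordinates are those of RefSeq on GRCm38.p6, and 38 of 38 segment names matched.

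Counts of V-J pairs (mean count of at least 10) and of central residues were tested across all features with edgeR 4.0.16 (quasi-likelihood, R 4.3.3) and Benjamini-Hochberg adjustment at 0.05, with DESeq2 1.42.0 as an alternative. The SE given with an edgeR log2 change is approximate, the absolute log2 change divided by the square root of the quasi-likelihood F. A value per library was tested by an exact two-sided permutation test over libraries (scipy 1.17.1). Alternatives were the carry-over and error filters, a least number of reads, the most abundant rearrangements, other scaling, other residue limits and leaving out each library. Both filters together, the 500 most abundant, at least 10 reads, equal V or J use, junctional residues, the splits by TRBV13-2 and a kept draw size were chosen after seeing the data. The scripts were tested on simulated data. The text names V-J pairs past the threshold and the 5 with most CNS reads, residues past the threshold and the 3 with the largest change, the largest clonotype of each library, and the 5 clonotypes with most sequences at each site. Asparagine was added after its values were seen. Members and lists were chosen with earlier results of these data known.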

Additional observations from a re-analysis of the deposited data

How the results depend on the processing

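The difference between CNS and periphery kept its direction under all alternatives run for the 3 clone-size measures and for net charge. Leaving out 1 library gave differences of -1150 to -770 clonotypes to reach 50% of the reads, -2983 to -1997 effective clonotypes, 32.8 to 37.6 percentage points in clonotypes of at least 1%, -0.192 to -0.137 in charge, 0.745 to 1.53 points in convergent clonotypes (0.745 without CNS replicate 3 at the draw of all 6 libraries, and 0.94995 at the larger draw that its absence allows) and 7.78 to 25.9 points in clonotypes found at the other site. Convergence turned to -1.38 points with all rearrangements in place of equal draws. Differences near 0 changed sign, and the cause was not tested. Inserted bases ran from -0.0403 to 0.16 over the left-out libraries, below 0 without CNS replicate 2. The share with no inserted base was -2.83 points weighted by reads, -1.41 and -2.80 in the 1000 and 500 most abundant, and -0.11 to 1.40 over the left-out libraries. D bases were -0.27 weighted by reads and -0.069 to 0.13 over the left-out libraries, and rearrangements with no D -3.15 to 0.000866 points. The hydrophobic share was -2.72 points weighted by reads, -0.0124 without TRBV13-2, -0.334 with equal J use and -0.33 to 0.35 over the left-out libraries. Aspartate turned to log2 changes of -0.27 in the 1000 and -0.27 in the 500 most abundant and -0.014 within TRBV13-2, and histidine to -0.20 in the 500 most abundant. In CNS replicate 3 the 1000 most abundant include rearrangements of 1 read. V-J pairs called by reads numbered 21 of 239 (8.79%) with DESeq2. By clonotypes they numbered 4 of 146 (2.74%) with the carry-over filter, the same 4 with both filters, and 10 of 128 (7.81%) with at least 2 reads. They numbered 2 of 152 with DESeq2 and 4 of 289 with no filter on low pairs, and 0 to 0 over the left-out libraries. Beyond segment use 1 of 128 was called with at least 2 reads. Residues called, out of 20 in each setting, numbered 0 with the carry-over filter, 7 with at least 2 reads, 4 with both filters, 6 weighted by reads, 0 in the 500 most abundant, 0 within TRBV13-2, 5 without it, 1 among junctional residues, 4 with at least 10 reads, 0 with TMM and 0 to 8 over the left-out libraries (1 without CNS replicate 1, 8 without CNS replicate 2, 1 without periphery replicate 1 and 0 without periphery replicate 2).

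CNS and periphery libraries of the same replicate number correlated at r = 0.0727, 0.226 and 0.0501 over 152 pairs. Those of different numbers correlated at -0.189 to 0.108, most of them below the same-number values. The labels do not give a pairing and these values do not settle it, so the numbers were not taken to pair the libraries. With the replicate number as a block, 0 V-J pairs were called by reads, 12 of 152 by clonotypes and 0 beyond segment use, and 4 of 20 residues, with edgeR adjusted p = 0.108 for arginine, 0.0381 for aspartate and 0.0429 for lysine. Blocked single values can reach no p below 0.25. Depth limits rare rearrangements, since 41.1% to 53.9% of CNS and 17.4% to 37.9% of periphery rearrangements rested on 1 read.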

Other observations

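TRBD2, which lies downstream of J cluster 1, was assigned together with a J segment of that cluster at both sites. These are assignments and not shown joins, since whether the D name was right was not tested. The inserted bases and D lengths given above rest on the same D assignments. TRBD2 was assigned in 15.5%, 13.4% and 18.3% of the CNS rearrangements with a D segment and a J of cluster 1, against 10.5%, 10.8% and 11.5% of those in the periphery (exact two-sided permutation p = 0.1, n = 3 each). Among rearrangements of at least 10 reads the shares were 10.9% ± 1.0 in the CNS and 7.18% ± 0.60 in the periphery, and among those of 1 read 18.7% ± 2.8 in the CNS, against 17.1% ± 1.0 in the periphery (SD, n = 3 each).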
